A study of Mus musculus with 10 samples.

Results

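Ptgfrn, its relative Igsf8 and 7 tetraspanins of leukocytes (Cd9, Cd37, Cd53, Cd63, Cd81, Cd82 and Cd151) were followed through RNA-seq libraries from the aortae of stressed and non-stressed mice. The 9 genes were chosen by name, from 48526 gene identifiers in the deposited count table. Ptgfrn had come up because its level differed between the groups in these same libraries, so its difference is given as a description with no test. The other 8 were listed for what they encode, though with earlier results of these data known. All 9 passed the filter on low counts. By its labels, the comparison addresses what acute mental stress does to endothelial cells of the mouse aorta, but the marker genes given below go against that cell type. The stressed group consisted of 5 libraries from ApoE mice (the strain as labelled) that underwent acute mental stress (3 h per day, 3 days in a row), and the non-stressed group of 5 libraries from ApoE mice without that exposure. All 10 were labelled aortic endothelial cells isolated by fluorescence-activated cell sorting. The labels give no age or further genotype, and do not say whether a library came from 1 animal or a pool, so the error given here is the spread between these libraries.

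Tetraspanins are small membrane proteins that cross the membrane repeatedly and gather integrins, immunoglobulin-type proteins and enzymes into patches called tetraspanin-enriched microdomains. The EWI proteins, named after a Glu-Trp-Ile motif in their immunoglobulin domains, are direct partners of CD9 and CD81 in these patches. PTGFRN (also called EWI-F or CD9P-1) was first described as a protein that lowers ligand binding to the prostaglandin F2 alpha receptor, and IGSF8 (EWI-2) links CD9 and CD81 to the ezrin, radixin and moesin proteins under the membrane. In leukocytes, tetraspanins take part in adhesion, migration, cell fusion and antigen presentation.

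Total counts ran from 18020220 to 38237346 per library, and a count of 0 in a library, taken as 3 counts at most, leaves room for 0.0785 to 0.166 CPM, a gene's count scaled by the total count of its library. The markers went against the endothelial label in both groups. Of 12 endothelial marker genes, Tek, Emcn and Cldn5 had no read, and Cdh5, which encodes VE-cadherin, had 115 reads over all libraries. The 12 endothelial markers summed to 62.6 to 108.5 CPM in stressed and 63.7 to 112.9 CPM in non-stressed libraries, against 26915 to 34195 CPM and 22241 to 34245 CPM for 12 monocyte and macrophage markers. All 10 platelet markers were counted, at sums of 164 to 343 CPM in stressed and 112 to 336 CPM in non-stressed libraries, as were all 10 B cell markers, at 374 to 691 CPM and 497 to 1049 CPM. The 2 libraries numbered 1 lay farthest out on the first 2 principal components, and values without them are given where they matter. In such bulk samples, fewer cells of a type and less RNA per cell cannot be told apart.

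Levels of the genes were compared as RPKM (CPM divided by the exon length in kilobases) with exon lengths from the GENCODE annotation. Cd53, a tetraspanin restricted to leukocytes, was highest at 322 ± 23.5 RPKM in stressed and 342 ± 31.5 RPKM in non-stressed libraries (SD, n = 5 each). Its lowest library, at 286 RPKM, lay far above the highest library of any other member. Cd37, the other leukocyte-restricted tetraspanin, stood at 46.8 ± 5.85 RPKM in stressed and 44.3 ± 7.59 RPKM in non-stressed libraries. Cd9 followed at 32.1 ± 13.7 RPKM in stressed and 29.6 ± 15.5 RPKM in non-stressed libraries, and Cd82, a broadly expressed tetraspanin that restrains migration in several cell types, at 21.3 ± 9.87 RPKM and 22.6 ± 8.39 RPKM. The ranges of Cd37, Cd9 and Cd82 over the 10 libraries overlapped from neighbour to neighbour, so their order is not beyond their spread.

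Igsf8 at 10.03 ± 0.866 RPKM in stressed and 9.51 ± 1.54 RPKM in non-stressed libraries and Cd151, the partner of laminin-binding integrins, at 10.4 ± 1.24 RPKM and 8.64 ± 2.29 RPKM, overlapped each other and stayed above every library of the members below them. The lowest Cd9 library, at 10.6 RPKM, lay inside their range, and the lowest Cd82 library, at 11.99 RPKM, lay just above the highest of Igsf8, at 11.95 RPKM. The lowest 3 members were Cd81, the tetraspanin of the B cell co-receptor, at 2.53 ± 1.36 RPKM in stressed and 2.31 ± 1.31 RPKM in non-stressed libraries, Ptgfrn at 2.23 ± 0.577 RPKM and 1.10 ± 0.131 RPKM, and Cd63, a tetraspanin of late endosomes and lysosomes, at 0.441 ± 0.228 RPKM and 0.593 ± 0.338 RPKM. These 3 also overlapped from neighbour to neighbour. Of the 2 EWI genes, Igsf8 was thus the more abundant per length in each of the 10 libraries. The level of Cd63 is uncertain because of shared sequence. Of the 50-base words of its 4 coding transcripts, 36.5% to 43.6% also occur in transcripts of other genes, most often the processed pseudogene Cd63-ps. For the 1 coding transcript of Cd9 it was 15.5%, most often with Gm26728, which overlaps Cd9 on the other strand. The remaining members had at most 7.87% in a coding transcript (Cd151). How the authors' counting treated such shared reads is not given in the sources used here; Cd63-ps itself had 12 reads.

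**Figure D1:**
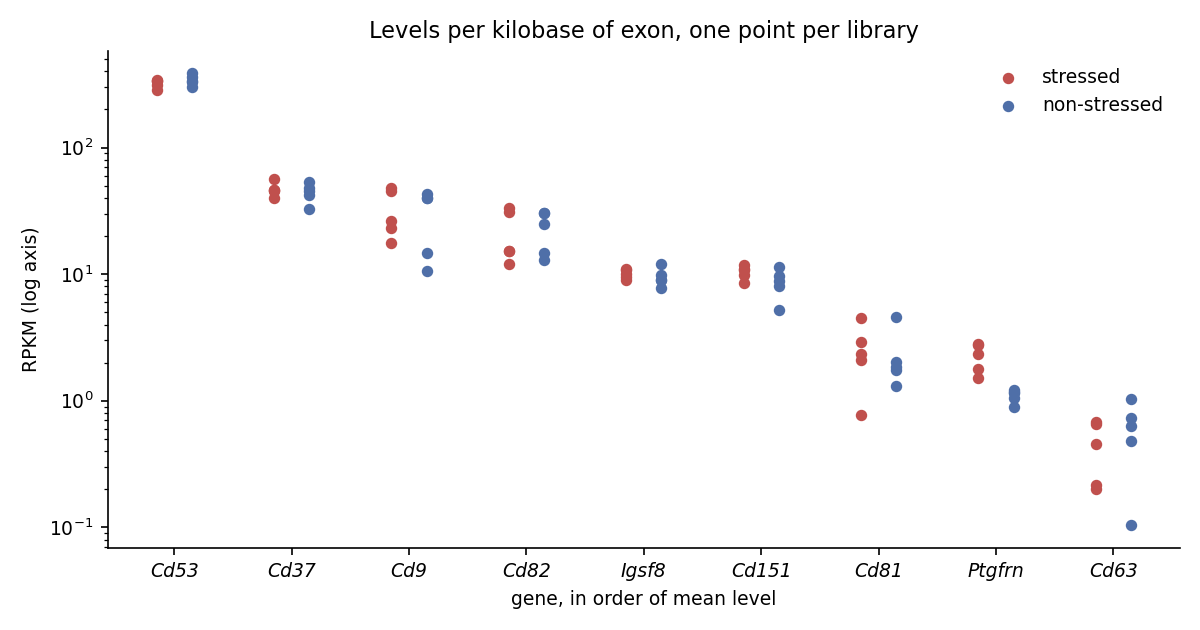
Level of each of the 9 genes in RPKM (log axis), 1 point per library, stressed to the left of non-stressed within each gene, with genes in order of their mean over 10 libraries. Cd53 stands alone at 286 to 386 RPKM, and Ptgfrn lies between Cd81 and Cd63 at 0.894 to 2.80 RPKM.

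Ptgfrn was higher in every stressed library than in any non-stressed one. It had 28.8, 29.3, 24.4, 18.7 and 15.7 CPM in stressed libraries 1 to 5, against 9.35, 12.2, 12.1, 10.9 and 12.8 CPM in non-stressed libraries 1 to 5, from 412 to 660 reads and 228 to 468 reads. The groups did not overlap, and the stressed libraries were spread more widely, with stressed libraries 4 and 5 nearest to the non-stressed range. The mean was 23.4 ± 6.04 CPM in stressed and 11.5 ± 1.37 CPM in non-stressed libraries (SD, n = 5 each), a fitted log2 fold change of 1.03 (SE 0.18), or 2.04-fold. Of all 13334 genes tested, 81 (0.607%) had every stressed library above every non-stressed one, Ptgfrn among them. Ptgfrn was picked for its difference between these groups, so nothing is read from the separation. Every stressed library was below every non-stressed one for 65 genes (0.487%), and for 0 of the 9 members. With 1 library left out at a time its log2 fold change ran from 0.93 (without stressed replicate 2) to 1.13 (without stressed replicate 5), and it was 0.87 without both libraries numbered 1.

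Reads from the Y chromosome divide the libraries into 2 sets. Among 6 libraries (3 per group) in which Ddx3y, on the Y chromosome, had more than 100 reads, the stressed mean exceeded the non-stressed mean by 1.01 in log2 CPM. In the 4 others, 2 per group, it was 0.97. These 4 had 0 Ddx3y reads and 9241 to 18977 reads of Xist, on the X chromosome, which had 0 reads in the 6. Separation of the groups within each set follows from that over all 10 libraries. Ptgfrn was chosen for its difference between the groups, so both differences are descriptions. Several lists of blood cell markers leaned to 1 sign, and others were mixed. All 10 platelet markers had a positive log2 fold change (median 0.41), all 10 B cell markers a negative one (median -0.29), and 10 of 12 T and NK cell markers a negative one (median -0.58), with summed T and NK cell levels of 15.98 to 109.1 CPM in stressed and 24.6 to 150.3 CPM in non-stressed libraries. Of these 3 lists edgeR called 0 genes, with 0 at an unadjusted p under 0.05. With the platelet marker level of each library as a covariate, Ptgfrn had a log2 fold change of 0.89 (SE 0.20), and with the B cell marker level 1.03 (SE 0.19). All 7 erythroid markers were positive (median 0.72, 0 called, 5 at an unadjusted edgeR p under 0.05). They summed to 1172 to 5529 CPM in stressed and 1333 to 2781 CPM in non-stressed libraries. Neutrophil markers were mixed, with 7 of 10 positive (median 0.14, 0 called, 1 at an unadjusted edgeR p under 0.05). Their sums were 1081 to 2374 CPM in stressed and 811 to 2588 CPM in non-stressed libraries. Of the classical dendritic cell markers 3 of 8 were positive (median -0.13, 0 called). The part of any of these cell types, or of monocytes, in the Ptgfrn difference was not tested. Both covariate fits use the libraries and the contrast in which Ptgfrn was chosen, so their values are descriptions.

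Ptgfrn (ENSMUSG00000027864) lies on the minus strand of chromosome 3 from 101040232 to 101110278 in mm10. None of the 50-base words of its transcripts occurred in a transcript of another gene, and the 1 gene annotated within it on the same strand, Gm43465, had 14 reads. The stretch upstream of its annotated exons, chr3:101110279-101110416 on the minus strand (RefSeq promoter table, GRCm38.p6), is printed because Ptgfrn is the member that separated the groups, with that of Igsf8, chr1:172312117-172312366 on the plus strand, as its EWI relative.
Ptgfrn: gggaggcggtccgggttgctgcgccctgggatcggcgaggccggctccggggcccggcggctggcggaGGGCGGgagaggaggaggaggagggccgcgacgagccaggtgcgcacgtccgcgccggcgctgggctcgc
Igsf8: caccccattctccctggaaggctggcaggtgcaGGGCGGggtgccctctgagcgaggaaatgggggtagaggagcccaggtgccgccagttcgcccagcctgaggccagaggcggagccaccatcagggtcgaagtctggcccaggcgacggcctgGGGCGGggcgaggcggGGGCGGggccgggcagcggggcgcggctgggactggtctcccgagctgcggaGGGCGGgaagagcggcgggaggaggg
Capitals mark the GC box GGGCGG, searched on both strands.
Both sequences are rich in G and C, with 1 GC box in the stretch of Ptgfrn and 4 in that of Igsf8. Over the window from 250 bases before to 50 after a start, 8 of the 13 windows of the members held a GC box, as did 35.6% of 32817 promoter windows of the table. Only Cd53 and Cd63 of the 9 members had none, and a gene could have up to 4 windows. The palindromic glucocorticoid response element, the D-box TTATGTAA and the cAMP response element TGACGTCA had no match in any of the 13 windows of the members. They occur in 0.00914%, 0.936% and 1.79% of all windows.

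Igsf8 did not differ beyond the spread between libraries. It had 49.3, 51.9, 57.1, 56.5 and 46.7 CPM in stressed libraries 1 to 5, against 40.7, 50.9, 46.9, 62.4 and 47.1 CPM in non-stressed libraries 1 to 5. All stressed values lay inside the non-stressed range. Its log2 fold change was 0.08 (SE 0.12, 95% interval -0.17 to 0.33, edgeR adjusted p = 0.976).

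The remaining EWI genes sit beside Ptgfrn on chromosome 3. Cd101 (EWI-101, also called Igsf2), an inhibitory receptor of myeloid cells and T cells, lies 10.7 kb from it on the same strand, and Igsf3 lies 266.8 kb away on the other strand. Cd101 had 20.4, 35.9, 10.1, 11.2 and 9.34 CPM in stressed libraries 1 to 5, against 25.1, 21.6, 20.4, 9.67 and 7.20 CPM in non-stressed libraries 1 to 5. Its groups overlapped almost fully (log2 fold change 0.05, SE 0.39, edgeR adjusted p = 0.998). Igsf3 had 0 reads in the 5 stressed libraries and 0 to 12 reads in the non-stressed ones, and was not tested. The prostaglandin F receptor gene Ptgfr, whose product gave PTGFRN its name, had no read in any library, which allows at most 0.0785 to 0.166 CPM per library.

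**Figure D2:**
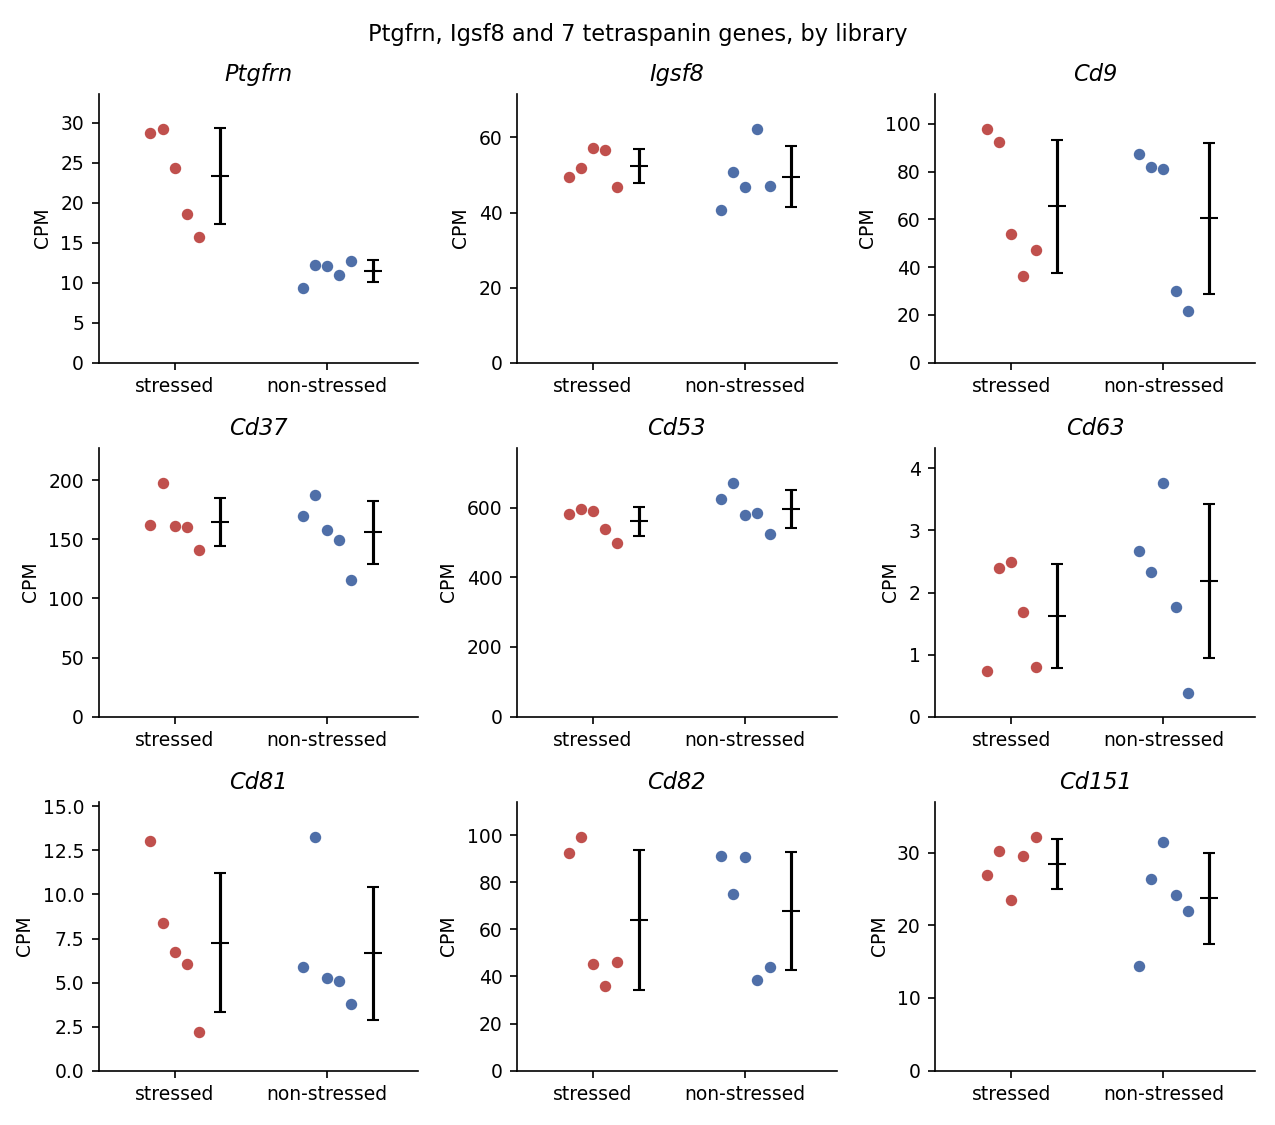
CPM of the 9 genes in each library (points, replicates 1 to 5 from left to right within a group) with the mean and SD of the group beside them, stressed left of non-stressed, each panel on its own linear axis from 0. Ptgfrn is the 1 panel without overlap, at 15.7 to 29.3 CPM in stressed and 9.35 to 12.8 CPM in non-stressed libraries. It was chosen for its difference between these groups.

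Over all genes, 1 of 13334 (0.00750%) passed an adjusted p of 0.05 in the edgeR quasi-likelihood test. Among the 8 members besides Ptgfrn, 0 passed in edgeR and 0 were at an unadjusted p under 0.05, a level that 5.53% of all genes reached. DESeq2 and limma-voom also called 0 of the 8, with 0 at an unadjusted p under 0.05, while over all genes DESeq2 called 0.129% and limma-voom 0.0150%. An unadjusted p under 0.05 was reached by 6.61% of genes in DESeq2 and 8.84% in limma-voom. In edgeR 5 of the 8 had a positive and 3 a negative log2 fold change, and the median over all 9 members was 0.08, beside 0.004 over all genes tested.

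The leukocyte-restricted pair was close between the groups. Cd53 had 581, 595, 589, 538 and 499 CPM in stressed libraries 1 to 5, against 623, 672, 579, 585 and 524 CPM in non-stressed libraries 1 to 5. Of these, stressed library 5 alone fell outside the non-stressed range, below it. The log2 fold change of Cd53 was -0.09 (SE 0.07, 95% interval -0.25 to 0.07, edgeR adjusted p = 0.950), the narrowest interval of the 8 genes tested. Cd37 had 162.1, 198, 161, 161 and 141 CPM in stressed libraries 1 to 5, against 169.8, 187, 158, 149.5 and 115 CPM in non-stressed libraries 1 to 5. Its groups overlapped, with library 5 lowest and library 2 highest in each (log2 fold change 0.08, SE 0.12, 95% interval -0.17 to 0.33, edgeR adjusted p = 0.973).

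The core GAGGAAGT, which the ETS factor PU.1 of myeloid and B cells is known to bind, was found in the windows of Cd53, Cd37 and Cd82, and in 3.20% of all promoter windows. The 30-base stretches are shown because Cd53 and Cd37 are the leukocyte-restricted members. They lie at chr3:106790125-106790154, chr7:45238846-45238875 and chr2:93462058-93462087, all on the minus strand (RefSeq promoter table, GRCm38.p6), and capitals mark the core, which in Cd53 and Cd37 reads as its reverse complement.
Cd53: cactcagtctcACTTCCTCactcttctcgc
Cd37: acccccccggaACTTCCTCtttctctgccg
Cd82: ggttccagaagGAGGAAGTtgattgagatg
A match shows the letters and not that a factor is bound there.

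Cd9 and Cd82 varied far more between libraries than between groups. Cd9, which platelets also carry at high levels, had 98.0, 92.4, 53.9, 36.1 and 47.1 CPM in stressed libraries 1 to 5, against 87.2, 81.8, 81.2, 30.2 and 21.7 CPM in non-stressed libraries 1 to 5. Its highest library was 4.51 times its lowest, and the groups overlapped widely (log2 fold change 0.12, SE 0.36, 95% interval -0.65 to 0.89, edgeR adjusted p = 0.993). Cd82 had 92.6, 99.4, 45.4, 36.0 and 46.1 CPM in stressed libraries 1 to 5, against 91.1, 74.8, 90.8, 38.7 and 43.9 CPM in non-stressed libraries 1 to 5. The groups overlapped here too (log2 fold change -0.08, SE 0.30, 95% interval -0.72 to 0.55, edgeR adjusted p = 0.994). Intervals this wide, from the unpaired fit, leave room for log2 differences of -0.65 to 0.89 in Cd9 and -0.72 to 0.55 in Cd82. With the replicate number as a block the SE was smaller, 0.18 for Cd9 and 0.16 for Cd82.

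The same 5 libraries held the 5 highest values of Cd9, Cd82 and Cd101, namely stressed libraries 1 and 2 and non-stressed libraries 1, 2 and 3. Between the fifth and the sixth library the level dropped to 53.9 CPM against 81.2 CPM for Cd9, 46.1 CPM against 74.8 CPM for Cd82 and 11.2 CPM against 20.4 CPM for Cd101. Of all genes tested, 3.55% had the same 5 highest libraries. So did 2 of the 12 tested tetraspanins outside the members (Tspan13 and Tspan14) and 9 of the 30 tested partners (Itga6, Itgb1, Itgal, Cd36, Cd47, Msn, Sdcbp, Prkcb and Rac1). Ptgfrn did not follow these libraries in the non-stressed group, where its lowest value, 9.35 CPM, was in library 1. The platelet markers summed to 334, 343, 267, 164 and 188 CPM in stressed libraries 1 to 5, against 189.5, 238, 336, 112.2 and 111.8 CPM in non-stressed libraries 1 to 5 (the part of platelets in the levels of Cd9 by library was not tested). With the platelet marker level as a covariate the log2 fold change of Cd9 was -0.35 (SE 0.21, edgeR adjusted p = 0.758). That of Cd82 was -0.52 (SE 0.19, edgeR adjusted p = 0.551). The B cell marker level as a covariate gave 0.34 for Cd9 (SE 0.27, edgeR adjusted p = 0.936) and 0.022 for Cd82 (SE 0.23, edgeR adjusted p = 0.997).

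**Figure D3:**
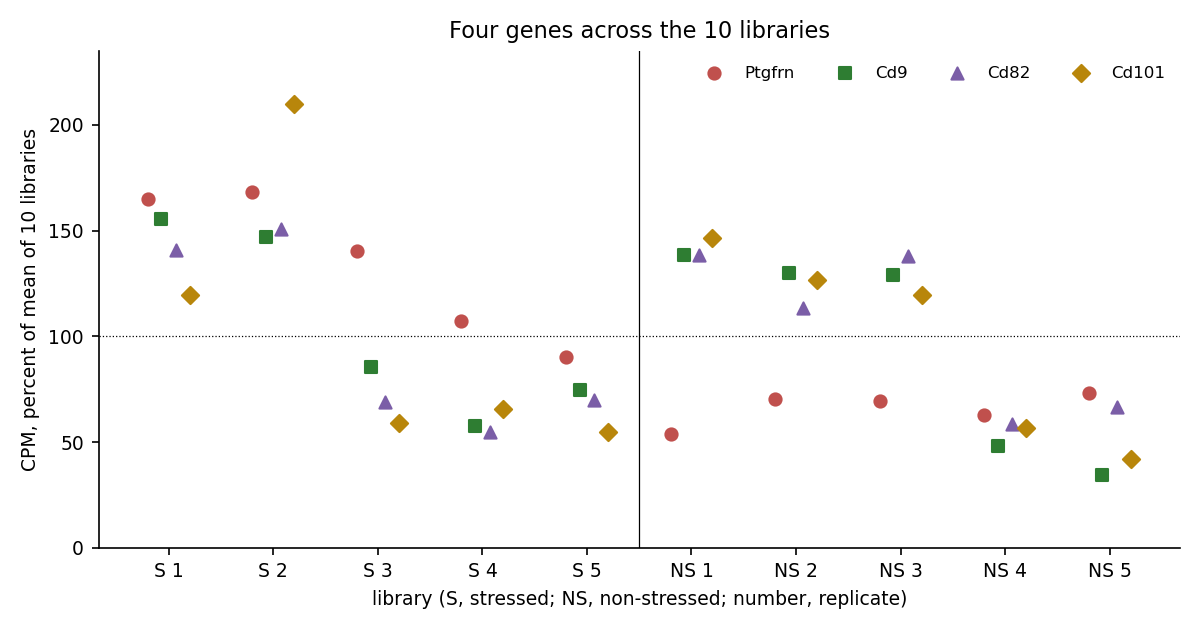
CPM of Ptgfrn, Cd9, Cd82 and Cd101 in each library, as a percent of the gene's mean over the 10 libraries (stressed left, non-stressed right, dotted line at 100). Cd9, Cd82 and Cd101 stand above their mean in the same 5 libraries of both groups. Ptgfrn, chosen for its difference, is higher in each stressed library than in any non-stressed one, though stressed library 5 lies below its mean.

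Cd151 had 26.9, 30.3, 23.4, 29.5 and 32.2 CPM in stressed libraries 1 to 5, against 14.4, 26.4, 31.5, 24.2 and 22.0 CPM in non-stressed libraries 1 to 5. The groups overlapped, with non-stressed library 1 lowest (log2 fold change 0.27, SE 0.18, 95% interval -0.11 to 0.65, edgeR adjusted p = 0.949). Its difference of means was 0.02 in the 6 libraries with Ddx3y reads and 0.74 in the 4 without. A test of the difference between these 2 sets gave an unadjusted p of 0.0465 and an adjusted p of 1 in edgeR, where 0 of 13334 genes (0%) passed. Without non-stressed replicate 1, 1 of those 4 libraries, the log2 fold change of Cd151 over all remaining libraries was 0.13.

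Cd81 had 13.0, 8.39, 6.71, 6.03 and 2.21 CPM in stressed libraries 1 to 5, against 5.87, 13.3, 5.27, 5.07 and 3.79 CPM in non-stressed libraries 1 to 5. One library in each group, stressed library 1 and non-stressed library 2, stood above the rest (log2 fold change 0.13, SE 0.42, 95% interval -0.77 to 1.02, edgeR adjusted p = 0.993). The B cell markers summed to 691, 682, 374, 685 and 492 CPM in stressed libraries 1 to 5. In non-stressed libraries 1 to 5 they summed to 809, 1049, 601, 497 and 555 CPM. The part of B cells in the level of Cd81 was not tested. Cd63 had 0.739 to 2.50 CPM in stressed and 0.383 to 3.77 CPM in non-stressed libraries, from 11 to 133 reads (log2 fold change -0.43, SE 0.62, edgeR adjusted p = 0.976). Both groups covered much the same range, and the shared words of its pseudogene limit this value as well as its level.

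Of the 24 other tetraspanins listed, 12 had enough reads to be tested and 3 (Tspan6, Tspan10 and Tspan11) had no read at all. Of these 12, 0 passed in edgeR and 0 were at an unadjusted p under 0.05; DESeq2 and limma-voom called 0 as well, with 0 at an unadjusted p under 0.05. Their median log2 fold change was -0.05, with 4 positive and 8 negative. Tspan14, a member of the group of tetraspanins that carries the protease ADAM10 to the surface, was at 227 to 268 CPM in stressed and 206 to 317 CPM in non-stressed libraries (log2 fold change -0.05, SE 0.10). Tspan13 was at 63.1 to 108.5 CPM in stressed and 87.2 to 144.6 CPM in non-stressed libraries (log2 fold change -0.28, SE 0.16, edgeR adjusted p = 0.927), with 2 of 5 stressed libraries below the non-stressed range. Tspan5, another carrier of ADAM10, had 0.21 (SE 0.12, edgeR adjusted p = 0.940), with 4 of 5 stressed libraries above the non-stressed range. Tspan2 had -0.33 (SE 0.37) and Tspan32, a tetraspanin of blood cells, -0.12 (SE 0.23).

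Of 34 partner genes listed, 30 were tested, 10 with a positive and 20 with a negative log2 fold change and a median of -0.05. None passed in edgeR, with 3 of 30 at an unadjusted p under 0.05, beside 5.53% of all genes. DESeq2 also called 0, with 3 of 30 at that level beside 6.61% of all genes, and limma-voom 0, with 7 of 30 beside 8.84%. All 8 integrin chains that tetraspanins bind were tested, 4 with a positive and 4 with a negative value. Among them Itga4, the alpha chain of VLA-4, had 1172 ± 132 CPM in stressed and 1287 ± 138 CPM in non-stressed libraries, and Itgb1 573 ± 92.3 CPM and 590 ± 112 CPM (SD, n = 5 each). Itga6, the laminin receptor chain that pairs with CD151, had 34.8 ± 18.8 CPM in stressed and 26.2 ± 11.9 CPM in non-stressed libraries (log2 fold change 0.41, SE 0.35, edgeR adjusted p = 0.950). The 3 membrane proteases gave 1 of the 3 low p values. Adam17, the sheddase of TNF that CD9 is known to restrain, was at 214 ± 21.6 CPM in stressed and 251 ± 14.4 CPM in non-stressed libraries (log2 fold change -0.23, SE 0.08, edgeR adjusted p = 0.829), with 3 of 5 stressed libraries below the non-stressed range.

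Of 14 surface partners 10 were tested, 3 positive and 7 negative. Cd36, a scavenger receptor, had 67.6, 70.7, 38.1, 29.5 and 26.7 CPM in stressed libraries 1 to 5, against 149.8, 119, 103.6, 33.4 and 40.2 CPM in non-stressed libraries 1 to 5. The groups overlapped through non-stressed libraries 4 and 5 (log2 fold change -0.94, SE 0.38, edgeR adjusted p = 0.874). Cd47 had -0.11 (SE 0.07, edgeR adjusted p = 0.948). Of the 9 cytoplasmic partners 2 were positive and 7 negative. The linkers that EWI proteins bind did not share a sign, with Ezr at 0.18 (SE 0.07, edgeR adjusted p = 0.874), Rdx at -0.14 (SE 0.07, edgeR adjusted p = 0.895) and Msn at -0.08 (SE 0.09, edgeR adjusted p = 0.961).

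**Figure D4:**
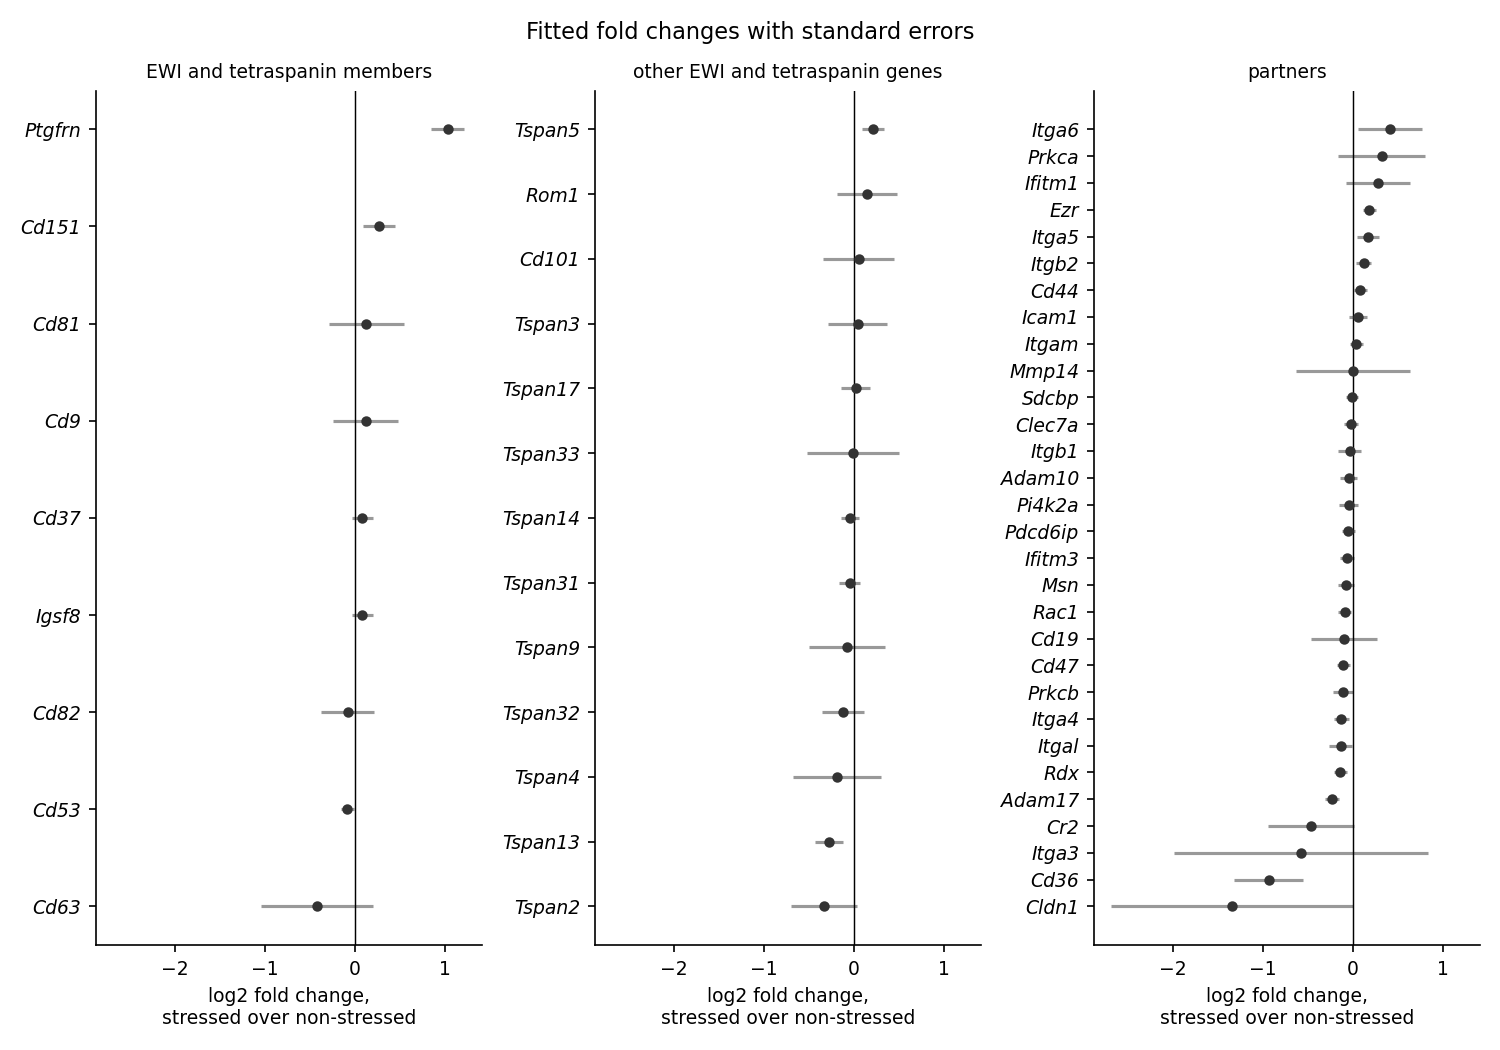
Log2 fold change of stressed over non-stressed libraries from the edgeR fit (points) with its standard error (bars), for the 9 members (left), the other EWI and tetraspanin genes tested (middle) and their partners (right). Ptgfrn, chosen for its difference between these groups, is at 1.03, and the other members run from -0.43 to 0.27.

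The genes whose level went most closely with Ptgfrn over the 10 libraries were picked from 10124 named genes, as a description with no test. The 5 highest Pearson correlations of normalized log2 CPM were those of Aurkaip1 (r = 0.93, Spearman's rho = 0.88), Ncln (r = 0.93, rho = 0.88), Slc19a2 (r = 0.92, rho = 0.92), Cox7a2l (r = 0.91, rho = 0.87) and Atp6ap1 (r = 0.91, rho = 0.78). Since Ptgfrn itself separated the groups, genes with a difference between the groups rank high here. Slc19a2, a thiamine transporter, was at 6.52 to 11.3 CPM in stressed and 4.72 to 6.68 CPM in non-stressed libraries. Ncln, which encodes the endoplasmic reticulum protein nicalin, was at 163.9 to 188 CPM in stressed and 156.9 to 161 CPM in non-stressed libraries. After the group means were subtracted, the 5 highest were Fbxo38 (r = 0.93, rho = 0.89), Vma21 (r = 0.92, rho = 0.90), Tcaim (r = 0.92, rho = 0.93), Anxa7 (r = 0.91, rho = 0.85) and Cav2 (r = 0.91, rho = 0.83). No member or partner was among these 10 genes.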

How the data were processed

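RNA-seq of 10 libraries was analysed (5 stressed, 5 non-stressed), grouped by their titles. The labels' protocols name PicoPure for RNA isolation and TruSeq Stranded for library preparation. Tools named in the submitters' processing notes are featureCounts, STAR and Trimmomatic, and the build is mm10. No version, annotation or strand option is given in the sources used here. The authors deposited raw read counts per gene, not normalized. Of 48526 identifiers, 48144 matched GENCODE M21. Genes overlapping a member on the other strand had at most 571 reads in total (Tead2, at Cd37).

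The counts were tested with edgeR 4.0.16 (R 4.3.3): filterByExpr (minimum count 10), TMM factors, intercept and group, quasi-likelihood F test, Benjamini-Hochberg adjustment over 13334 genes at 0.05. DESeq2 1.42.0 and limma 3.58.1 were alternatives. Standard errors were obtained from the F statistic and the log2 fold change. CPM per library uses plain totals. The procedure was checked on simulated counts. No library was a duplicate: within groups, pairs gave chi-square values of 21.1 to 64.8 for each degree of freedom. Limits for a count of 0 cover counting error only, while intervals of fold changes include the spread between libraries. The members and lists were chosen with earlier results of these data known. Genes were named by a rule: all members and EWI genes, the 5 smallest p of each list, and the 5 genes most like Ptgfrn. Genes beyond it, chosen after their values were seen, are those named as examples of a role or of a shared pattern. Leaving out both libraries numbered 1 was added after seeing the data.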

Additional observations from a re-analysis of the deposited data

Results flagged for a closer look

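Cd81 stood at 13.3 CPM in non-stressed library 2, far from the other 4 non-stressed libraries, whose nearest value was 5.87 CPM. Without that library the log2 fold change of Cd81 was 0.53. Chance alone sets apart about 1 group in 20 by this measure, and 20 groups (10 genes, both groups) were examined.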

How the results depend on the processing

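The number of genes called over all genes was 1, and 19 with DESeq2, 2 with limma-voom, 10 without a low-count filter, 4 with the B cell marker level as a covariate and 1 to 2 with 1 library left out. With the replicate number as a block it was 4. Deviations of same-numbered libraries correlated at -0.03 to 0.16, above 0.1 for 4 of 5 pairs but not for replicate 3. Of the stressed libraries 4 of 5 correlated best with their own number, and same-numbered libraries were alike in having Ddx3y reads or not, a hint from the data and not from the labels, so the samples were compared unpaired. In the block fit Cd9 had 0.22 (SE 0.18, against 0.36 without the block) and Cd82 had -0.11 (SE 0.16, against 0.30). No member besides Ptgfrn was called in any setting tried, the block fit included. Ptgfrn was chosen for this contrast, so no test result is given for it. The cause of the differing numbers of genes called was not tested. Cd81 had -0.10 with limma-voom and -0.24 without both libraries numbered 1. With the platelet marker level as a covariate Cd9 had -0.35, Cd37 -0.011 and Cd81 -0.24, and with the B cell marker level Cd82 had 0.022. With 1 library left out, Cd9 ran from -0.10 to 0.28, Cd37 from -0.015 to 0.15, Cd81 from -0.20 to 0.53 and Cd82 from -0.30 to 0.062. Negative values came without stressed replicate 1 or 2 or non-stressed replicate 4 or 5 for Cd9, non-stressed replicate 5 for Cd37, and stressed replicate 1 or non-stressed replicate 5 for Cd81. Positive ones came without stressed replicate 3, 4 or 5 or non-stressed replicate 1 or 3 for Cd82. Igsf8, Cd53, Cd63 and Cd151 kept their sign in all settings tried. Ptgfrn ran from 0.87 to 1.13, but it was chosen for its difference, so nothing is read from its constant sign. The median over the 9 members ran from -0.14 (platelet covariate) to 0.15 (without non-stressed replicate 2).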
